A study of Mus musculus with 8 samples.

Results

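The genes described here are the cytosolic and mitochondrial heat shock proteins, the heat shock factors Hsf1 and Hsf2, and the DnaJ cochaperones, in RNA-seq of whole PrL (prelimbic cortex) tissue from mice, from libraries of poly(A) RNA. They were taken by symbol, as all rows that begin with Hspa, Hspb, Hspd, Hspe or Hsph and a number, with Hsp90a, or with Dnaj, plus Hsf1 and Hsf2. The endoplasmic reticulum (ER) forms Hspa5 and Hsp90b1 were left out. This gave 65 of the 14765 genes in the table, of which 64 of the 13911 tested held enough counts for the test. The gene not tested was Dnajb13. Family members absent from the deposited table are not covered: of 8 genes listed as small heat shock proteins, 6 were in it. The SNI group (spared nerve injury, in which branches of the sciatic nerve are cut to give lasting pain) had 4 libraries and the sham group had 4. The labels give C57 as the genotype of all animals and name no other allele or drug. Of all genes tested, Cx3cr1 had the lowest log2 fold change (SNI over sham), at -4.74. Whether the groups share a genotype beyond that label was not tested. Age, sex, time after surgery and the number of mice behind each library are not in the labels. The p-values therefore measure the spread between these libraries, part of which may be technical.

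Heat shock proteins are molecular chaperones that bind unfolded or aggregated proteins. HSP70 proteins do so in cycles of ATP hydrolysis that J-domain proteins, the DNAJA, DNAJB and DNAJC families, start on a chosen client, and that nucleotide exchange factors such as the HSP110 proteins end. HSP90 acts later, on nearly folded kinases and receptors, HSP60 with HSP10 folds proteins inside mitochondria, and small heat shock proteins hold unfolded clients without ATP. Hsf1 is the transcription factor that binds heat shock elements and raises the inducible members when unfolded proteins build up. In neurons several members have standing tasks at the synapse, where Hspa8 with the J-domain proteins Dnajc6 and Dnajc5 removes clathrin coats and keeps release proteins folded.

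Library totals were 14735602 to 19602487 counts in SNI and 14957654 to 17694715 in sham, and the 65 genes together took 0.875% to 1.08% of the counts in SNI and 0.984% to 1.04% in sham. The summed level of 7 excitatory neuron markers, Slc17a7 and Tbr1 among them, was 3607 to 5050.1 CPM (reads scaled to library size with TMM factors) in SNI and 4818 to 5543 CPM in sham, so cortical neurons were present in all 8 libraries. Genes high in neighbouring or other tissue were counted too: 10 striatal markers summed to 385 to 907 CPM in SNI and 260 to 512 CPM in sham, 8 microglia markers to 400 to 620 CPM in SNI and 346 to 430 CPM in sham, and 3 choroid plexus markers to 5.91 to 7.06 CPM in SNI and 1.77 to 2.99 CPM in sham. The sum of 5 erythrocyte markers was 81.0 to 184 CPM in SNI and 31.5 to 64.4 CPM in sham, so those ranges did not overlap. Among them edgeR called Hba-a1 higher and Hba-a2, a near copy of it, lower. The part of these differences in the values below was not tested. In bulk tissue, fewer cells of a type and less RNA per cell cannot be told apart.

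Few of the chaperone genes were called different between SNI and sham. Of the 64 tested, 0 were higher and 2 were lower in SNI at an edgeR adjusted p under 0.05, which is 3.125% of them. Over all genes tested the same threshold was passed by 5.02%, with 2.15% higher and 2.87% lower, so the share of chaperone genes that changed was not above the background. The 2 that fell were Hspb3, a small heat shock protein, and Dnajb5, a class B J-domain protein. At an unadjusted p under 0.05 there were 4 higher and 10 lower, 21.9% of the 64 against 21.1% of all genes. By direction this was 6.25% higher and 15.6% lower among the 64, against 10.3% higher and 10.7% lower among all genes. DESeq2 called 0 higher and 3 lower, adding Hspa4, where 4.70% of all genes were called lower. With limma voom 0 were higher and 1 lower, Hspb3, where 821 of all genes were called in either direction. The median log2 fold change over the 64 was -0.0049, against 0.01 over all genes tested, with 32 positive and 32 negative. In 33 of the 64 the estimate was smaller than 0.1 in size, and in 53 the whole 95% interval lay between -0.5 and 0.5. Over all 13911 genes tested these counts were 5255 and 8818. The ranges of both groups stood clear of each other in 5 of the 64 genes (7.81%), against 12.7% of all genes tested. The 5 were Hspb3, Hspa4, Dnajc5 and Dnajc30, lower in SNI, and Dnajc9, higher in SNI.

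**Figure D1:**
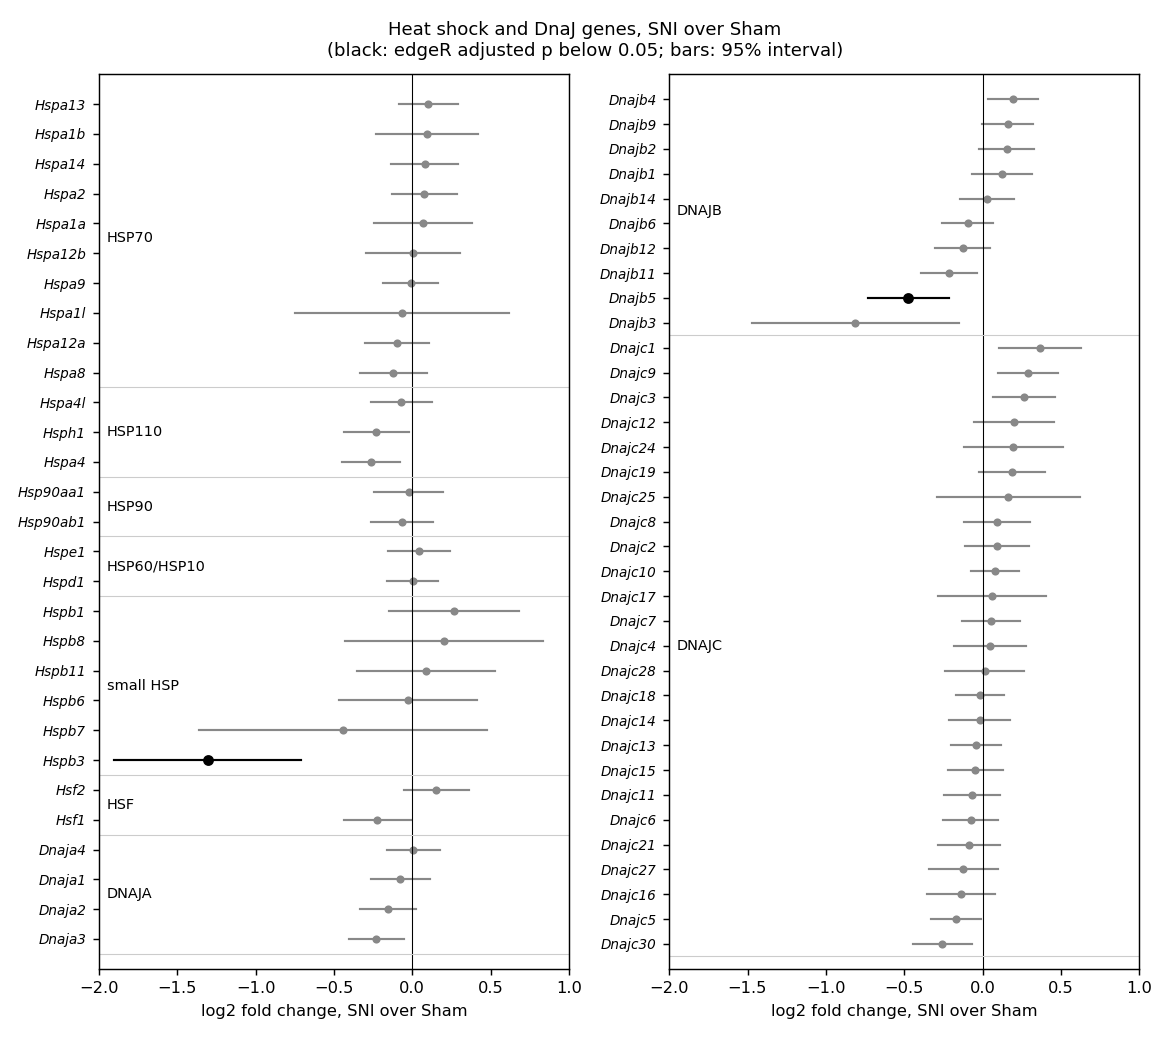
Log2 fold change of each of the 64 tested genes, SNI over sham, with its 95% interval (horizontal axis), grouped by family and ordered by size within a family. Black marks the 2 genes with an edgeR adjusted p under 0.05, Hspb3 (-1.30) and Dnajb5 (-0.47), and grey the others, which lie from -0.81 (Dnajb3) to 0.36 (Dnajc1).

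Hspb3 had the largest change. It encodes a small heat shock protein best known from muscle, where it pairs with Hspb2, and variants of the human gene are linked to a motor neuropathy. Its level was 1.18, 1.29, 1.06 and 0.844 CPM in SNI replicates 1 to 4, against 2.85, 2.12, 2.34 and 3.56 CPM in sham replicates 1 to 4. Every SNI library lay below every sham library. The means were 1.09 ± 0.190 CPM in SNI and 2.72 ± 0.637 CPM in sham (SD, n = 4 libraries each), and the log2 fold change was -1.30 ± 0.280 (SE; edgeR adjusted p = 0.016), with a 95% interval from -1.90 to -0.71. The gene was scarce, with 14 to 26 reads in the SNI libraries and 32 to 62 in the sham libraries. Its call ended without Sham replicate 4, the highest library (log2 fold change -1.14, adjusted p = 0.0514), and stood without each of the other 7. Hspb3 lies on chromosome 13 (GRCm38, 113662896 to 113663676, minus strand), and no other coding gene overlaps it in GENCODE M21.

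Dnajb5, also called Hsc40, encodes a cytosolic partner of HSP70. It is the more abundant of the pair, with 123, 125, 115 and 161 CPM in SNI replicates 1 to 4, against 191, 201, 194 and 143 CPM in sham replicates 1 to 4. The groups overlapped: SNI replicate 4 lay above Sham replicate 4, while the other 3 SNI libraries lay below all 4 sham libraries. The means were 131 ± 20.4 CPM in SNI and 182 ± 26.8 CPM in sham (SD, n = 4 libraries each). The difference was -0.47 ± 0.120 on the log2 scale (SE; edgeR adjusted p = 0.0364). Without SNI replicate 4 and without Sham replicate 4 the fall was larger, at -0.59 and -0.58. In the 6 other leave-one-out fits the call ended, with log2 fold changes of -0.45 to -0.42 and adjusted p of 0.0735 to 0.122. Dnajb5 lies on chromosome 4 (GRCm38, 42949814 to 42959425, plus strand) and overlaps no other coding gene.

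**Figure D2:**
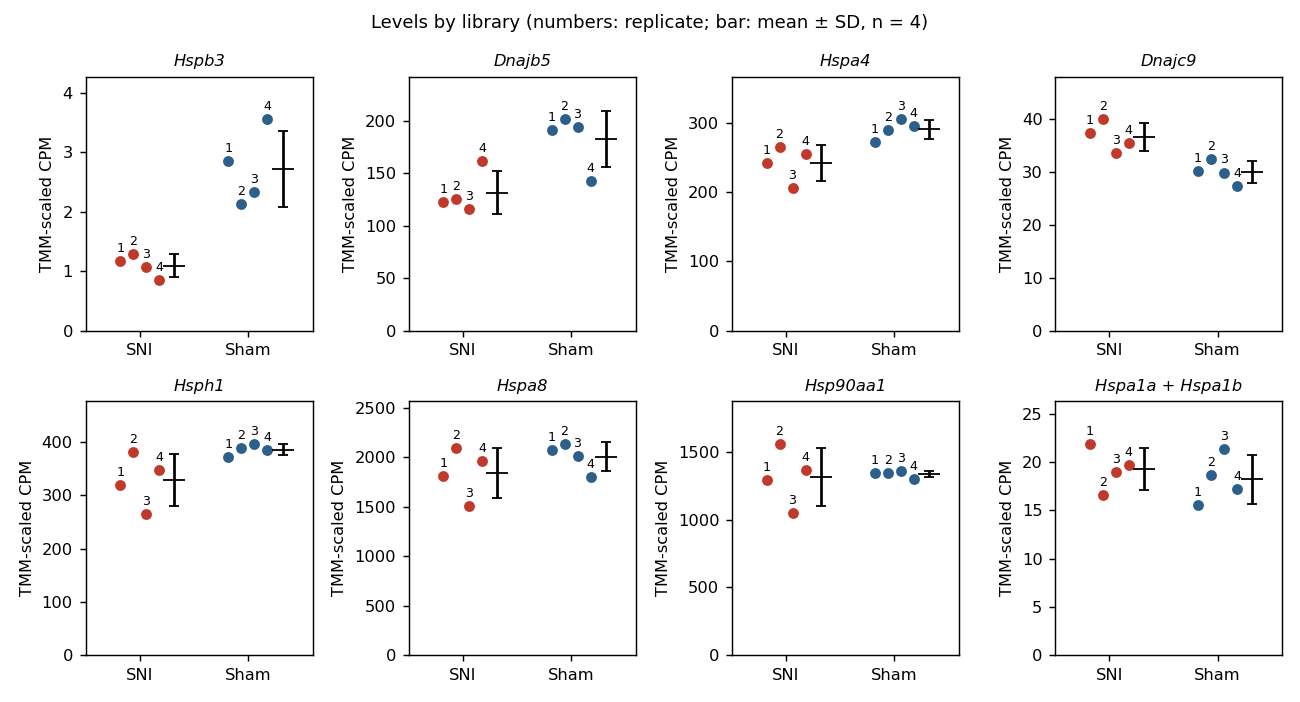
TMM-scaled CPM (vertical axis, from 0) of 8 measures in each SNI (left, red) and sham (right, blue) library, numbered by replicate, with mean ± SD beside them (n = 4 libraries each). Hspb3 and Hspa4 in SNI lie wholly below sham and Dnajc9 wholly above it, Dnajb5 overlaps through replicate 4 of both groups, and SNI replicate 3 is the lowest point of Hsph1, Hspa8 and Hsp90aa1.

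The sequences upstream of these 2 genes are given because Hsf1 acts through short inverted repeats of GAA near transcription starts. RefSeq windows (GRCm38.p6, 250 bases before to 50 after an annotated start, 300 in all) were at hand for 53 of the 65 genes. They were searched on both strands for 2 joined units, GAANNTTC or TTCNNGAA, each its own reverse complement, and for 3 joined units, GAANNTTCNNGAA or TTCNNGAANNTTC. A match of 3 units also counts as overlapping matches of 2. At least 1 match of 2 units was found in 15 of the 53 genes (28.3%), against 14.1% of the 11467 genes of the table with a window and 17.0% of all 27025 RefSeq genes with one. A match of 3 units was found in 4 of the 53 (7.55%), against 0.549% of the genes of the table and 0.662% of all genes. Of the 4, Hspd1 and Hspe1 share the same stretch, which is counted for each. A match is a run of letters, not a shown binding site. Imperfect units, with other letters than GAA or TTC, were not searched for. The 12 genes with no window in this source were Dnajc2, Dnajc5, Dnajc11, Dnajc12, Dnajc18, Dnajc30, Hsf1, Hsp90aa1, Hsp90ab1, Hspa8, Hspa9 and Hspa13. The windows of both genes that fell are printed 5′ to 3′ on the strand of the gene, with matches of 2 units in capitals. That of Hspb3 (chr13:113663627-113663926, minus strand) holds 1 match, and that of Dnajb5 (chr4:42949617-42949916, plus strand), 1 of 3 windows of this gene, holds none, as do the other two.
Hspb3: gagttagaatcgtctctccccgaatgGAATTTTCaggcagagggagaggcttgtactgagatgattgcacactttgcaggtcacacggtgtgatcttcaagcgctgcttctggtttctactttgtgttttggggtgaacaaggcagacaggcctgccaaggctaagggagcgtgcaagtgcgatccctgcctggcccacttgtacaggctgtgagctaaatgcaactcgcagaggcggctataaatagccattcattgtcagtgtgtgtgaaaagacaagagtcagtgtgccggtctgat
Dnajb5: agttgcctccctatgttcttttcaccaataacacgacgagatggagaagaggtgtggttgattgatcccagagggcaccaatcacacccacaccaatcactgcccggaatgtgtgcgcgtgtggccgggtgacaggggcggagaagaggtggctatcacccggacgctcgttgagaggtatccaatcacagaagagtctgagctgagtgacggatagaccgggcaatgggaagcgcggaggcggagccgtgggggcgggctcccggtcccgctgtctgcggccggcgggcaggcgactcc

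Members that heat or other stress can raise did not pass the threshold. Of 13 such members, among them Hspa8, which is largely constitutive, edgeR called 0. The other 12 were Hspa1a, Hspa1b, Hspb1, Hspb8, Hsph1, Dnajb1, Dnajb4, Dnaja1, Hsp90aa1, Hspa4l, Hspd1 and Hspe1. At an unadjusted p under 0.05, 1 was higher (Dnajb4) and 1 lower (Hsph1), and DESeq2 and limma voom also called 0 of the 13. Their median log2 fold change was 0.04. Hspa1a and Hspa1b, the classic inducible HSP70 genes, code for almost the same protein, and the split of reads between the copies is uncertain, so their sum is the firmer measure. It was 21.9, 16.6, 19.0 and 19.7 CPM in SNI replicates 1 to 4, against 15.5, 18.7, 21.4 and 17.2 CPM in sham replicates 1 to 4. The groups overlapped almost fully. The means were 19.3 ± 2.20 CPM in SNI and 18.2 ± 2.50 CPM in sham (SD, n = 4 libraries each). In an exact permutation test, two-sided, p was 0.514, and 0.0286 is the smallest the design allows. Taken singly, Hspa1a had 9.48, 8.47, 8.12 and 8.92 CPM in SNI and 7.46, 8.76, 10.05 and 7.11 CPM in sham. Hspa1b had 12.5, 8.12, 10.9 and 10.8 CPM in SNI and 8.07, 9.96, 11.4 and 10.1 CPM in sham. Neither separated the groups. Their log2 fold changes were 0.07 ± 0.146 and 0.09 ± 0.153 (SE), with 95% intervals from -0.24 to 0.38 and from -0.23 to 0.42.

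The window of Hspa1a (chr17:34972107-34972406, minus strand) is printed as that of an inducible HSP70 gene. It differs from that of Hspa1b at 4 of 300 positions, and both hold 1 match of 2 units, in capitals.
Hspa1a: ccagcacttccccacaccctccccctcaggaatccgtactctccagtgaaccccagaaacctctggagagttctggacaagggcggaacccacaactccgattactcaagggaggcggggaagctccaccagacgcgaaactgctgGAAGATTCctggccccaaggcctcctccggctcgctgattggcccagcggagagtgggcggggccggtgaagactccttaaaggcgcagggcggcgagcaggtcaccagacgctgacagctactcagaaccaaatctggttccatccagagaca
Dnajb1, the J-domain protein that works with inducible HSP70, had 91.8, 82.7, 75.5 and 95.6 CPM in SNI and 75.7, 79.5, 88.3 and 73.5 CPM in sham. The ranges overlapped, and the log2 fold change was 0.12 ± 0.0896 (SE; edgeR adjusted p = 0.453). Hspb1 (HSP27), a small heat shock protein that also caps actin filaments, had 10.04, 11.4, 12.8 and 9.10 CPM in SNI and 6.45, 13.3, 8.53 and 7.80 CPM in sham. Its highest library was Sham replicate 2, and its interval was wide, from -0.15 to 0.68 on the log2 scale. Hspb8, which works with Bag3 in the removal of aggregates, was at 0.20 (interval -0.43 to 0.83), and Hspb6, Hspb7 and Hspb11 were at -0.03, -0.44 and 0.09. These genes are scarce, and of the 6 Hspb genes 1, Hspb6, had its whole interval between -0.5 and 0.5. The 6 were grouped as small heat shock proteins by symbol alone, Hspb11 among them.

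Hsf1 itself had 30.9, 24.8, 28.6 and 31.8 CPM in SNI, against 35.8, 37.1, 31.2 and 31.5 CPM in sham. Its highest SNI library, replicate 4, lay just above the lowest sham libraries, replicates 3 and 4. The log2 fold change was -0.22 ± 0.101 (SE) and did not pass (edgeR adjusted p = 0.215). Hsf2, a related factor with roles in development, had 30.1, 37.1, 29.9 and 32.7 CPM in SNI and 32.9, 28.8, 27.5 and 27.6 CPM in sham, and a log2 fold change of 0.15 ± 0.0986 (SE; adjusted p = 0.393). Sham replicate 1 lay among the SNI values. These are mRNA levels. Hsf1 is switched on by changes in the protein, which the assay does not measure.

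The most abundant members were Hsp90ab1, Hspa8 and Hsp90aa1, and these 3 genes held 46.6% to 50.6% of all counts of the 65 genes in SNI and 48.0% to 50.8% in sham. Per kilobase of exon their mean levels over the 8 libraries were 587, 448 and 337 CPM, followed by Dnaja2 at 74.9, Hspd1 at 65.6, Dnajc6 at 56.4, Dnajc5 at 56.1 and Hspe1 at 52.0 CPM per kilobase. The lowest tested genes were Hspb7 at 0.225 and Hspa1l at 0.679 CPM per kilobase. Lengths are of all annotated exons of a gene merged, which understates genes with long rare exons.

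**Figure D3:**
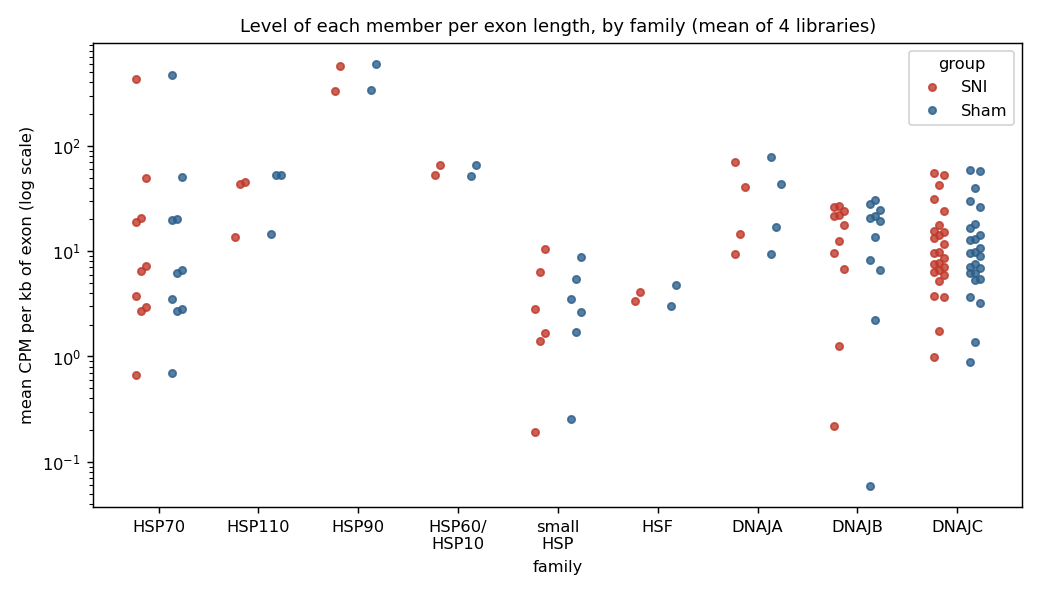
Mean level of each of the 65 genes in CPM per kilobase of merged exon (vertical axis, log scale) by family, with SNI (red) left of sham (blue). Each point is 1 gene averaged over 4 libraries. Hsp90ab1, Hspa8 and Hsp90aa1 stand above all other members in both groups, and the DNAJB gene at the bottom is Dnajb13.

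Hspa8, the constitutive HSP70 of neurons, had 1813, 2099, 1509 and 1965 CPM in SNI, against 2075, 2139, 2014 and 1800 CPM in sham. SNI replicate 3 was the lowest of all 8. The log2 fold change was -0.12 ± 0.102 (SE), with a 95% interval from -0.34 to 0.10. Hsp90aa1, the inducible HSP90, had 1290, 1560, 1046 and 1365 CPM in SNI and 1344, 1343, 1359 and 1303 CPM in sham (log2 fold change -0.02 ± 0.103 SE), so that SNI held both the highest and the lowest library. Hsp90ab1, the constitutive form, had 1882, 1675, 1448 and 1872 CPM in SNI and 1851, 1800, 1870 and 1688 CPM in sham (-0.07 ± 0.0927 SE). Dnaja1, a class A partner of Hspa8, had 343, 391, 296 and 386 CPM in SNI and 378, 372, 380 and 364 CPM in sham (-0.08 ± 0.0895 SE), and its exons overlap those of Smu1 on the other strand. For these 4 genes the edgeR adjusted p ran from 0.53 to 0.922. Without SNI replicate 3 the log2 fold change was -0.03 for Hspa8, 0.07 for Hsp90aa1, 0.0063 for Hsp90ab1 and 0.0012 for Dnaja1.

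SNI replicate 3 was the lowest of the 8 libraries for 10 of the 12 most abundant tested members, the exceptions being Dnajc6 (lowest in Sham replicate 1) and Hspd1 (lowest in SNI replicate 1). Over the 64 tested members it was the lowest for 20 (31.2%), against 15.5% of all genes tested. The other libraries were lowest for 4 to 10 members each. Cell type markers also differed in this library. The mean log2 deviation of 7 excitatory neuron markers was -0.257 in SNI replicate 3 and -0.277 in SNI replicate 2, against 0.0362 and -0.0051 in SNI replicates 1 and 4 and 0.0228 to 0.228 in sham. That of 8 microglia markers was 0.571 in SNI replicate 3, between -0.0956 and 0.223 in the other SNI libraries, and from -0.273 to -0.0051 in sham. That of 8 astrocyte markers was 0.282 in SNI replicate 3, from -0.175 to 0.163 in the other SNI libraries, and from -0.209 to 0.172 in sham. The part of these differences in the chaperone values was not tested. SNI replicate 2, the lowest library in excitatory markers, was the highest of the 8 for 19 members, among them Hsp90aa1, Dnaja1, Hspa9 and Hspd1. How often it was the highest over all genes was not counted, so the 19 have no background share. This library was the lowest of the 8 for 20.3% of all genes tested, against 10.9% of the members.

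**Figure D4:**
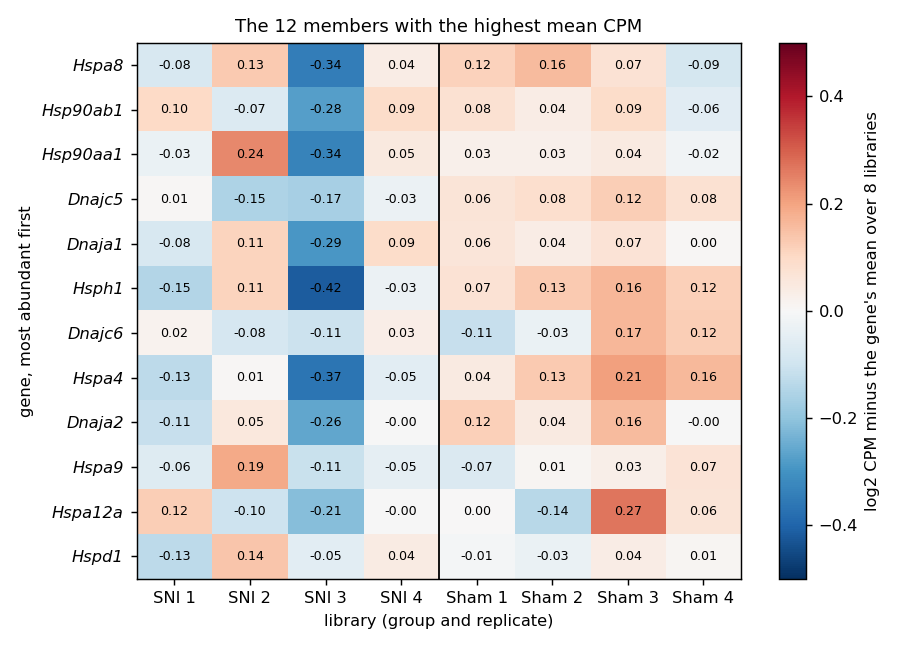
Log2 CPM of the 12 most abundant members minus each gene's mean over the 8 libraries (colour and printed value), SNI libraries left of the line and sham libraries right of it. SNI replicate 3 is the lowest column in 10 of the 12 rows, with -0.42 for Hsph1 and -0.34 for Hspa8, while SNI replicate 2 reaches 0.24 for Hsp90aa1.

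The 3 HSP110 proteins, which free HSP70 of its spent nucleotide and with it take aggregates apart, all had negative estimates, and edgeR called 0 of them, with 2 at an unadjusted p under 0.05. Hspa4 (also called Apg-2) had 241, 265, 205 and 255 CPM in SNI, against 272, 289, 305 and 296 CPM in sham. The groups did not overlap. The log2 fold change was -0.27 ± 0.0872 (SE; edgeR adjusted p = 0.0914), or -0.19 without SNI replicate 3. DESeq2 called it (adjusted p = 0.0415, with 4.70% of all genes called lower), as did edgeR without SNI replicates 2 and 4 (0.0431), and its adjusted p over the 18 alternatives ran to 0.256. Hsph1 (HSP105) had 320, 383, 265 and 347 CPM in SNI, against 372, 389, 397 and 385 CPM in sham, with SNI replicate 2 inside the sham range. Its log2 fold change was -0.23 ± 0.0974 (SE; adjusted p = 0.187), or -0.14 without SNI replicate 3. It passed in 1 of 18 alternatives, without SNI replicates 2 and 4 (-0.40, adjusted p = 0.0384). Hspa4l, a relative of Hspa4, had 149, 184, 143 and 171 CPM in SNI and 160, 160, 184 and 175 CPM in sham, a log2 fold change of -0.07 ± 0.0915 (SE).

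Hsph1 is 1 of the 4 genes with a match of 3 units, together with Dnajb6, Hspd1 and Hspe1. Of its 2 windows the one printed (chr5:149636287-149636586, minus strand) holds 3 matches of 2 units, in capitals, of which the last 2 overlap.
Hsph1: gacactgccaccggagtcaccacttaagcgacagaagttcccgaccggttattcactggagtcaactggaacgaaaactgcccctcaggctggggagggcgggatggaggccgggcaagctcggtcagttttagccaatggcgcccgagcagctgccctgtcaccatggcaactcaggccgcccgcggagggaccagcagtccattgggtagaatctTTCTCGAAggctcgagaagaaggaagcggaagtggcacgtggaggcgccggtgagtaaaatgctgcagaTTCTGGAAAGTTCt

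Hspd1 (HSP60) and Hspe1 (HSP10), the chaperonin and its lid in the mitochondrial matrix, are divergent neighbours on chromosome 1 whose start windows share 285 bases. They had close to no difference between the groups. Hspd1 had 158, 191, 167 and 178 CPM in SNI and 172, 169, 177 and 174 CPM in sham, a log2 fold change of 0.0015 ± 0.0776 (SE) with a 95% interval from -0.16 to 0.17. Hspe1 had 66.9, 90.5, 72.4 and 81.2 CPM in SNI and 74.9, 81.5, 72.1 and 73.4 CPM in sham, a log2 fold change of 0.04 ± 0.0927 (SE) with an interval from -0.15 to 0.24. For both, SNI replicate 2 was the highest of the 8 libraries and SNI replicate 1 the lowest. Their annotated exons overlap on opposite strands, and GENCODE M21 holds 5 and 6 pseudogenes named after them, so the division of reads is uncertain. The window of Hspe1 (chr1:55087898-55088197, plus strand) holds 3 overlapping matches of 2 units, in capitals. On the minus strand the same stretch is most of 1 of the 2 windows of Hspd1, the one that holds a match.
Hspe1: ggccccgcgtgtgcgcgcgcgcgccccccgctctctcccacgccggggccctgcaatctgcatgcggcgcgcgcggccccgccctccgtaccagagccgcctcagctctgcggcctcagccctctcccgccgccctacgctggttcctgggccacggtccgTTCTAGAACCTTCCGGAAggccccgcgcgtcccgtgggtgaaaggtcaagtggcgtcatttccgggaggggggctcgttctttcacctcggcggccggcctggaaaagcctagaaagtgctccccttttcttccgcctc

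Among 10 members that work in mitochondria edgeR called 0, with 2 lower at an unadjusted p under 0.05, and the median log2 fold change was -0.0049. The 2 were Dnajc30, which acts on the respiratory chain, and Dnaja3 (Tid1), the partner of mitochondrial HSP70. Dnajc30 had 25.8, 24.4, 22.9 and 26.9 CPM in SNI, against 30.7, 29.9, 28.2 and 30.7 CPM in sham, with no overlap (log2 fold change -0.26 ± 0.0890 SE, edgeR adjusted p = 0.109). Its exons overlap those of Bud23 on the other strand. Dnaja3 had -0.23 (adjusted p = 0.129), and Hspa9 (mortalin), the mitochondrial HSP70, had -0.01 ± 0.0822 (SE).

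Among 11 members of the ER, edgeR called 0, with 2 higher and 1 lower at an unadjusted p under 0.05, and the median log2 fold change was 0.08. Dnajc1, an ER membrane J-domain protein, had 17.1, 22.1, 22.2 and 20.2 CPM in SNI, against 16.3, 16.7, 17.5 and 12.9 CPM in sham. SNI replicate 1 lay inside the sham range, and the gene was called in 1 of 18 alternatives, without that library (log2 fold change 0.44, edgeR adjusted p = 0.048). With all libraries it had 0.36 ± 0.123 (SE; adjusted p = 0.0995). Dnajc3 (p58IPK), an ER cochaperone raised by the unfolded protein response, had 52.1, 64.5, 58.1 and 64.4 CPM in SNI, against 43.4, 50.1, 50.0 and 55.6 CPM in sham (0.26 ± 0.0942 SE, adjusted p = 0.119). Dnajb11 (ERdj3), the partner of the ER HSP70, had -0.21, and Dnajb9 (ERdj4), a target of the same response, had 0.16. The 4 genes therefore had estimates of both signs, and none passed.

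At the synapse, Dnajc5 (cysteine string protein) sits on vesicles and keeps release proteins folded. It had 391, 350, 347 and 382 CPM in SNI, against 407, 413, 424 and 411 CPM in sham. All 4 SNI libraries lay below all 4 sham libraries, by a small margin. The means were 367 ± 22.2 CPM in SNI and 413 ± 7.32 CPM in sham (SD, n = 4 libraries each), and the log2 fold change of -0.17 ± 0.0741 (SE) did not pass (edgeR adjusted p = 0.198). Dnajc6 (auxilin), which strips clathrin from endocytosed vesicles with Hspa8, had 336, 314, 309 and 340 CPM in SNI and 307, 325, 374 and 363 CPM in sham, a log2 fold change of -0.08 ± 0.0825 (SE). The lowest of the 8 libraries was SNI replicate 3 for Dnajc5 and Sham replicate 1 for Dnajc6. Dnajc13, an endosomal J-domain protein, had -0.04. Over a list of 5 genes with synaptic or endocytic tasks, not all of them members, edgeR called 0. At an unadjusted p under 0.05, 1 of the 5 was lower. All 5 estimates were negative, 2 of them smaller than 0.1 in size, and the median log2 fold change was -0.12. Their mean log2 deviation was -0.131 to 0.0011 in SNI and 0.0135 to 0.133 in sham, so these ranges did not overlap. The part of cell type differences in these values was not tested.

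Further members differ in where they are known to act. Hspa2, an HSP70 best known from spermatogenesis, had 62.8, 50.0, 52.1 and 53.2 CPM in SNI and 50.2, 60.5, 49.0 and 47.0 CPM in sham (log2 fold change 0.08 ± 0.0972 SE). Hspa12a, a distant HSP70 relative, had 197, 168, 156 and 180 CPM in SNI and 181, 164, 217 and 189 CPM in sham (-0.10 ± 0.0967 SE), and its exons overlap those of Eno4. Over the 10 HSP70 genes edgeR called 0 and 0 had an unadjusted p under 0.05, with log2 fold changes from -0.12 (Hspa8) to 0.10 (Hspa13). Dnajc9, a histone chaperone that brings HSP70 to chromatin, had 37.4, 40.0, 33.6 and 35.6 CPM in SNI, against 30.3, 32.5, 29.9 and 27.4 CPM in sham. The groups did not overlap, and the log2 fold change was 0.29 ± 0.0898 (SE; edgeR adjusted p = 0.0777). Scaled by library totals alone it passed (0.34, adjusted p = 0.0432), where 3.21% of all genes were called higher, and its adjusted p over the 18 alternatives ran to 0.228. Over the 25 DNAJC genes edgeR called 0, with 3 higher and 2 lower at an unadjusted p under 0.05 and log2 fold changes from -0.26 (Dnajc30) to 0.36 (Dnajc1). Over the 10 tested DNAJB genes they ran from -0.81 (Dnajb3, adjusted p = 0.145) to 0.19 (Dnajb4, adjusted p = 0.154), and over the 4 DNAJA genes from -0.23 (Dnaja3) to 0.0068 (Dnaja4).

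Dnajb13, a radial spoke protein of motile cilia, was the member that held too few reads to be tested. It had 2, 11, 12 and 15 reads in SNI replicates 1 to 4, against 2, 2, 5 and 1 in sham replicates 1 to 4. In 3 of the 4 SNI libraries the count exceeded every sham count. Fitted with no filter on low counts, its log2 fold change was 1.84 with an edgeR adjusted p of 0.109. Its exons overlap those of Ucp2 on the other strand. Of 9 ependymal and motile cilium markers 6 were tested and 1 was called, Cfap126, higher in SNI, with 6 of 6 estimates positive. The markers in the table, Foxj1 and Rsph1 among them, summed to 20.2, 31.7, 25.7 and 26.0 CPM in SNI and 16.1, 17.7, 18.7 and 20.5 CPM in sham. Their part in the Dnajb13 counts was not tested.

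Few partners of these chaperones passed the threshold. Over 64 tested genes of 6 lists of cochaperones, chaperonins and other Hsf1 targets, 2 were higher and 0 lower in SNI at an edgeR adjusted p under 0.05 (3.125%, against 5.02% of all genes), and the median log2 fold change was 0.03. At an unadjusted p under 0.05 there were 5 higher and 4 lower (7.81% and 6.25%, against 10.3% and 10.7% of all genes). DESeq2 called 4 (with Cct5 and Ccdc117) and limma voom 3 (with Ccdc117), all higher. Over all genes DESeq2 called 1165 and limma voom 821, in either direction. Both called genes belong to prefoldin, which hands new actin and tubulin to the chaperonin TRiC. Vbp1 had 67.2, 89.4, 79.9 and 80.3 CPM in SNI, against 63.8, 59.9, 58.9 and 63.9 CPM in sham (log2 fold change 0.36 ± 0.0876 SE, edgeR adjusted p = 0.0276). Pfdn5 had 151, 183, 212 and 161 CPM in SNI, against 137, 138, 118 and 139 CPM in sham (0.41 ± 0.102 SE, adjusted p = 0.0304). In both genes every SNI library lay above every sham library, and 0 of the 64 were called without SNI replicate 2, without SNI replicate 3 and without each of Sham replicates 1, 2 and 3. Without SNI replicate 4, Vbp1 was not called. With SNI replicate 1 left out 4 were called, Vbp1, Pfdn5, Ccdc117 (higher) and Hspbp1 (lower). Of the 15 tested TRiC and prefoldin genes these 2 passed (13.3%, against 5.02% of all genes, with 2.15% higher). The third in order of p, Cct5, a TRiC subunit, had 0.22 (adjusted p = 0.103). Over the 64 partner genes, the ranges of both groups stood clear of each other in 10 (15.6%), against 12.7% of all genes tested.

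Of 14 HSP70 exchange factors and regulators edgeR called 0, with 1 lower at an unadjusted p under 0.05. The 3 of smallest p were Hspbp1, an exchange factor (log2 fold change -0.31, adjusted p = 0.0895), Bag4 (0.16) and Bag3, an Hsf1 target that links HSP70 to autophagy (0.49). Of 20 tested HSP90 cochaperones edgeR called 0, with 1 higher and 3 lower at an unadjusted p under 0.05. They were led by Stip1, which joins HSP70 to HSP90 (-0.25, adjusted p = 0.142), Unc45b (-0.78) and Cdc37l1 (0.18). Stip1 had 203, 204, 162 and 204 CPM in SNI, against 225, 260, 231 and 205 CPM in sham, narrowly apart, with SNI replicate 3 the lowest as for the abundant HSPs. Of 17 other Hsf1 targets edgeR called 0, with 1 higher and 2 lower at an unadjusted p under 0.05. The 3 of smallest p were Ccdc117 (0.41, adjusted p = 0.0534), Stip1 and Ahsa1, the activator of the HSP90 ATPase (-0.17). Of 5 tested further heat shock factors and Hsf1 regulators edgeR called 0, also at an unadjusted p under 0.05, with Hsbp1l1, Hsf4 and Hsf5 at -0.62, 0.20 and 0.52. Cryab (alpha B-crystallin), the small heat shock protein of glia, had 68.8, 79.6, 95.5 and 105 CPM in SNI and 83.1, 51.5, 61.7 and 81.8 CPM in sham (log2 fold change 0.33 ± 0.174 SE, adjusted p = 0.319). The groups overlapped, and 8 oligodendrocyte markers were likewise spread, at 4368 to 7749 CPM in SNI and 3136 to 6951 CPM in sham.

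Immediate early genes answer neuronal activity and handling of the animal. Of 17 such genes edgeR called 0, with 6 higher (35.3%, against 10.3% of all genes) and 0 lower at an unadjusted p under 0.05, and the median log2 fold change was 0.25. Their summed level was 1400 to 1915 CPM in SNI and 1250 to 1603 CPM in sham, so the ranges overlapped, as did those of Hspa1a, Hspa1b and Dnajb1.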

How the data were processed

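The authors deposited a table of whole-number counts of reads per gene, 1 column per library. Per the submitters' processing notes, fastp, HISAT2 and StringTie were used on GRCm38; versions, annotation, filter and use of strand are not given in the sources used here. Per the labels' protocols, poly(A) RNA was selected and libraries kept strand by dUTP. The smallest count is 1, and 0 columns were left unused. Library totals were 14735602 to 19602487 counts, so genes near 1 CPM rest on few reads.

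Differential expression used edgeR 4.0.16 (R 4.3.3): filterByExpr, TMM scaling, robust quasi-likelihood F-test on group alone, two-sided, with Benjamini-Hochberg adjustment over all genes tested and a threshold of 0.05. The SE is the log2 fold change divided by the square root of F, and 95% intervals use the fit's degrees of freedom. Deviations per library are log2 CPM with a prior count of 2, centred on the gene's mean and averaged over a list. The method was tested on simulated counts. Alternatives were other scalings and filters, DESeq2 1.42.0, limma 3.58.1 voom with sample quality weights (limma voom in the text), a replicate block and each library left out. Of the 14765 symbols, 14661 matched GENCODE M21, which gave coordinates and exon lengths. Sequences are RefSeq's (GRCm38.p6). Values per library are given for members past the threshold and for 19 members listed by name whatever their values; the highest and lowest of each family and the 3 of smallest p in each list of partners are named. Hspa4, Dnajc1, Dnajc3, Dnajc9, Dnajc30 and Stip1 were given in full, and single values of other members were picked, after their values were seen. Members and lists were chosen with earlier results of these data known. The excitatory marker list was used without 1 gene, which is not reported here.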

Additional observations from a re-analysis of the deposited data

Results flagged for a closer look

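In Sham replicate 4, Dnajb5 was at 142.6 CPM, far from the other 3 sham libraries, which lay between 191.5 and 201.3 CPM. That gap was 0.832 of the group's whole range, just over the critical value of Dixon's test for 4 values. Of 44 sets of 4 values looked at this was the 1 that passed, and chance alone passes about 1 in 20. Without this library the fall of Dnajb5 was larger (log2 fold change -0.58, edgeR adjusted p = 0.0085).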

How the results depend on the processing

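The count of members lower in SNI was 2. It was 3 with DESeq2, 1 with limma voom and 1 with the replicate block, where Dnajb5 lost its call at nearly the same log2 fold change (-0.48, adjusted p = 0.112). It was 1 to 2 when single libraries were left out. In fits chosen after seeing the data it was 3 without SNI replicates 2 and 4 and 0 without SNI replicates 2 and 3. The count of members higher in SNI was 0, but 1 (Dnajc9) with library totals, and 0 to 1 when single libraries were left out (Dnajc1 without SNI replicate 1). Of the 2 called genes, Hspb3 passed in 15 of 18 alternatives and failed without Sham replicate 4 (-1.14), without SNI replicates 2 and 4 (-1.27, adjusted p = 0.074) and without SNI replicates 2 and 3 (-1.43, adjusted p = 0.0771). Dnajb5 passed in 9 of 18, with log2 fold changes from -0.61 to -0.36 and adjusted p up to 0.365. The cause of these losses was not tested, beyond the smaller number of libraries. Of other chaperone genes 2 were called, 4 with DESeq2, 1 with the replicate block (Vbp1, with Pfdn5 not called), 0 to 4 when single libraries were left out, and 0 without either pair of SNI libraries. Over all genes 698 were called, 1165 with DESeq2, 258 to 858 when single libraries were left out (258 without Sham replicate 3, 297 without SNI replicate 3, 430 and 447 without Sham replicates 2 and 1), 438 without SNI replicates 2 and 4, and 178 without SNI replicates 2 and 3. With library totals 61.8% of calls were higher, against 42.8% with TMM.

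Signs turned for some genes near 0, none of them called. Hspd1 had -0.0034 with RLE scaling, -4.23e-05 with no filter, -0.0032 with DESeq2, -0.0096 with limma voom, -0.0018 with the replicate block, -0.0932 without SNI replicates 2 and 4, and -0.0437 without 2 and 3. Hsp90aa1 had 6.07e-06 with upper-quartile scaling and 0.0245 with library totals. Hspe1 had -0.12 without SNI replicates 2 and 4 and -0.0265 without 2 and 3, where Hsp90ab1 had 0.0593 and Hspa12a 0.0069. Leaving out single libraries gave -0.0473 to 0.0435 for Hspd1, -0.038 to 0.11 for Hspe1, -0.12 to 0.0716 for Hsp90aa1, -0.11 to 0.0063 for Hsp90ab1, -0.13 to 0.0012 for Dnaja1 and -0.0041 to 0.17 for Hspa1a. The difference of the Hspa1a and Hspa1b sum, 1.10 CPM, ran from 0.200 to 2.16 CPM. Correlations of deviations between same-numbered SNI and sham libraries were -0.148 to -0.0056, and those between differently numbered ones -0.179 to 0.218. The deviations were centred within each group and the same-numbered pairs are few. These values therefore cannot settle whether the replicate numbers pair the samples.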
